A study of Mus musculus with 4 samples.

Results

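The genes of the proteasome, the protease complex that degrades ubiquitin-tagged proteins, were followed in cultured mouse neural stem cells labelled Olig1 KO or wild type. The members were chosen by name. They are the genes whose platform symbol is Psma, Psmb, Psmc, Psmd, Psme, Psmf or Psmg followed by a number, on probe sets annotated to a single gene. This gave 46 genes on 83 probe sets, of 12393 genes measured in all. Psmc3ip and Psme3ip1, whose symbols go on after the number, were not taken, and the 1 probe set shared by Psme2 and Psme2b was left out because it names several genes. The arrays were 3 labelled Olig1 KO (knockout of the oligodendrocyte lineage transcription factor gene Olig1) and 1 labelled wild type. All 4 were made from neural stem cells of the ganglionic eminences of embryos at embryonic day 14.5, on a C57/Bl6 background, grown in serum-free medium with EGF. The part of Olig1 that the allele lacks was not given in the labels. Nor was it said whether each KO sample was a separate embryo or culture. The titles number KO replicates 2 and 3 as 37 and 38 without saying what the numbers mean. The p-values therefore speak of the spread among these arrays alone, part of which may be technical. That spread also spans KO arrays that differ in Xist and in the Y chromosome gene Eif2s3y, as given below.

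The 26S proteasome is a barrel, the 20S core, capped by a 19S regulatory particle. The outer rings of the core are built of alpha subunits, which gate the channel, and the inner rings of beta subunits, of which Psmb5, Psmb6 and Psmb7 carry the catalytic threonines. Interferon-responsive subunits (Psmb8, Psmb9 and Psmb10) can take the place of these catalytic subunits to form the immunoproteasome. The 19S particle holds ATPases (Psmc) that unfold substrates, and non-ATPase subunits (Psmd) that bind ubiquitin and remove it. Genes of the constitutive subunits are transcribed in nearly all cells, and in mammals the transcription factor Nfe2l1 raises them together when proteasome activity is short.

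The samples differed in ways other than genotype. Olig1 itself gave MAS5 signals (the linear intensity deposited for each probe set) of 3840, 4438 and 8548 in KO replicates 1, 2 and 3, against 7618 in the wild-type array, so its probe set does not separate the labels. Xist, the RNA of the inactive X chromosome, was at 8473, 160.9 and 46.5 in KO replicates 1, 2 and 3, against 9480.5 in the wild-type array, and the wild-type array therefore shares this pattern with KO replicate 1 only. Beta-actin's 3' probe set over its 5' one, a ratio that grows as RNA degrades, was 1.25, 1.30 and 1.82 in KO replicates 1, 2 and 3, against 1.11 in the wild-type array. The same ratio of Gapdh did not follow it, at 0.794, 1.03 and 0.842 in the KO replicates, against 0.759 in the wild-type array. The median signal of the 18S ribosomal RNA probe sets was 7.24, 946 and 2823 in the KO replicates, against 4.64 in the wild-type array. Eif2s3y, carried on the Y chromosome, read 1.53, 654 and 1160.5 in KO replicates 1, 2 and 3, against 0.608 in the wild-type array. Xist, 18S and Eif2s3y thus set KO replicates 2 and 3 apart from KO replicate 1 and wild type; their part in the results below was not tested. All 8 neural stem cell markers looked at (Sox2, Nes, Pax6, Vim, Fabp7, Egfr, Notch1 and Hes1) were above background in all 4 arrays. The summed signal of 5 neuron markers was 1618, 1013 and 977 in the KO replicates, against 2041 in the wild-type array. That of 4 astrocyte markers was 2258, 1450.0 and 1115, against 2303, so both sums were lowest in KO replicate 3. Map2 made up the largest part of the neuron sum (1447, 784 and 593 in the KO replicates, against 1766 in wild type). S100b did so for the astrocyte sum (1925, 976 and 537, against 1726). Among the other markers, KO replicate 3 was highest for Dcx, Tubb3, Snap25 and Aqp4, lowest for Stmn2 and Gfap, and neither for Aldh1l1. In KO replicate 3, Snap25, Stmn2 and Gfap were at background. Background here means the highest of 27 bacterial probe sets with no target, which was 21.3, 39.99 and 87.8 in KO replicates 1, 2 and 3, against 30.5 in the wild-type array.

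No proteasome gene passed the test of KO against wild type. Of the 46 genes, 43 passed the filter on dim genes, and all 43 were above background in all 4 arrays. Psma8, Psmb8 and Psmb9 did not pass it. In limma's fit over 7436 kept genes, 0 of the 43 had an adjusted p under 0.05 (0% of all kept genes), and 0 had an unadjusted p under 0.05 (2.26% of all kept genes). In limma the adjusted p was 0.99997 for each of them, and it is not repeated below. The differences of KO from wild type, on the scale of log2(signal + 14.4), ranged between -0.84 and 0.61, with a median of 0.039 against -0.00014 over all kept genes. Their standard errors ran between 0.30 and 0.67, so differences of the size seen here were not resolved by 3 arrays against 1. Higher than wild type in all 3 KO arrays were 10 of the 43 genes, where 23.2% of all kept genes were, and lower in all 3 were 11, where 20.6% of all kept genes were.

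The proteasome genes of KO replicate 1 lay close to those of the wild-type array. None of the 43 differed 2-fold between them (1.87% of all kept genes did), and the SD of the log2 differences was 0.20 over the 43 genes and 0.36 over all kept genes. In KO replicate 2, 0 genes were 2-fold from wild type (4.45% of all kept genes). In KO replicate 3, 3 were, Psmb3 above wild type and Psmb2 and Psme3 below it (9.35% of all kept genes), and the SD over the 43 genes was 0.55, against 0.61 over all kept genes. Bright genes vary less on these arrays, and 31 of the 43 belong to the brightest 25% of kept genes, for which the SD was 0.26 between KO replicate 1 and wild type and 0.53 between KO replicate 3 and wild type. The median log2 difference of the 43 genes from the wild-type array was -0.015, 0.077 and -0.012 in KO replicates 1, 2 and 3, against 0.024, 0.022 and -0.016 over all kept genes. Above wild type were 21, 24 and 21 of the 43 genes in KO replicates 1, 2 and 3 (53.5%, 52.1% and 48.7% of all kept genes). The median of the complex thus stayed near that of the wild-type array in each KO array, while single subunits of KO replicate 3 spread to both sides.

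**Figure D1:**
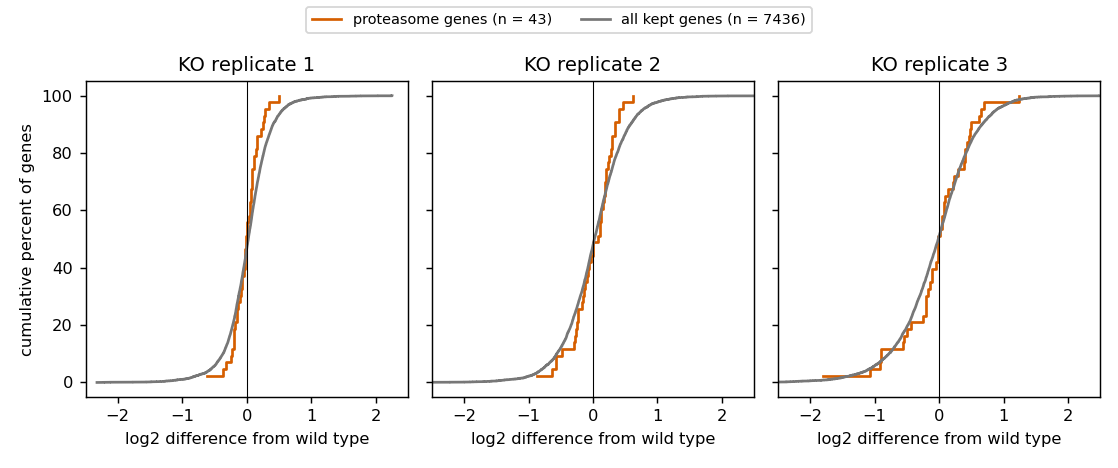
Cumulative percent of genes (vertical axis) against the log2 difference of each KO array from the wild-type array (horizontal axis, 1 panel per KO array), for 43 proteasome genes (orange) and 7436 kept genes (grey), of which the few beyond the ends of the axis are not drawn. The orange curve is steeper than the grey one in KO replicate 1 (SD 0.20 against 0.36) and close to it in KO replicate 3 (SD 0.55 against 0.61).

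The promoters of 4 members are shown for the genes that the results below turn on, Psme3 and Psmb3, which varied most among the KO arrays, Psma3 as an alpha ring gene above wild type in every KO array, and Psmb9 as an immunoproteasome gene. They were chosen with these values known. Each runs 5' to 3' on the gene's strand and covers 250 bases before the start of transcription and 50 after it, from RefSeq on GRCm38.p6. Capitals mark CCAAT, the letters bound by the factor NF-Y, and ACTTCCG, a form of the site of ETS factors, each on either strand.
Psmb3, chr11:97703184-97703483, plus strand: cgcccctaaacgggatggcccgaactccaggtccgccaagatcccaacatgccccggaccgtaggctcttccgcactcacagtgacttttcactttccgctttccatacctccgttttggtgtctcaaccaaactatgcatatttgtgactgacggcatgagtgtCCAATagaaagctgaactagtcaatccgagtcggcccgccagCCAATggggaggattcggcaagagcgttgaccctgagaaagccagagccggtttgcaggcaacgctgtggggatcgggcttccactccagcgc
Psma3, chr12:70974373-70974672, plus strand: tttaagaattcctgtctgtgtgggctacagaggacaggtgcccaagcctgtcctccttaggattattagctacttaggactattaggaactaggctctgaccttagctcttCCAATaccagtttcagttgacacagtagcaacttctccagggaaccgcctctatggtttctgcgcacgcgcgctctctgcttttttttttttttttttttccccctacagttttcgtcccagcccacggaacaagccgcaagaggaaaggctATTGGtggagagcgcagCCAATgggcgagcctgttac
Psme3, chr11:101315963-101316262, plus strand: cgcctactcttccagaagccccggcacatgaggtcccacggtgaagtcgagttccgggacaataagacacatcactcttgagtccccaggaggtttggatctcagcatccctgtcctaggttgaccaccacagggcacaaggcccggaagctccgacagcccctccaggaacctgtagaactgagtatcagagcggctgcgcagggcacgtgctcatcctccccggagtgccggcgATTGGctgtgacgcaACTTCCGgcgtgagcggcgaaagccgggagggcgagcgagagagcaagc
Psmb9, chr17:34187281-34187580, minus strand: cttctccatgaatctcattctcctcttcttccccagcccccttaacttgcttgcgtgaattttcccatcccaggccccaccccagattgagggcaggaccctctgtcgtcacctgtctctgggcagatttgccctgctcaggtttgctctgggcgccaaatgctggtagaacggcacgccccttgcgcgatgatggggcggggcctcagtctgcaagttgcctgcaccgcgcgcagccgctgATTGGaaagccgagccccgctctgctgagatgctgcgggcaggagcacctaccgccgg
Psmb3 has CCAAT starting 85 and 43 bases before its start. Psme3 has CCAAT on the opposite strand, ending 10 bases before the start, and ACTTCCG in the first bases after it. Psma3 has CCAAT at 1 place upstream and, on either strand, at 2 places after its start, and Psmb9 has it on the opposite strand just before the start.

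Promoters were listed for 38 of the 46 genes, 2 of them with 2 entries. ACTTCCG was found in 14 of the 38 (36.8%), against 9.39% of 17492 protein-coding genes with such a window, and the 14 include 3 of 5 ATPase genes and 5 of 9 non-ATPase genes of the 19S particle. CCAAT was found in 13 of the 38 (34.2%), against 42.3% of protein-coding genes, and 5 of these are among the 7 alpha ring genes with an entry (Psma1, Psma2, Psma3, Psma6 and Psma7). Core letters of the antioxidant response element, the site through which Nfe2l1 acts, were searched as TGACNNNGC and TGAGNNNGC on both strands. The first was found in 6 of 38 promoters (15.8%, against 14.8% of protein-coding genes) and the second in 12 (31.6%, against 20.5%). Among kept genes with an entry, the 12 with CCAAT had a median log2 difference from wild type of 0.063, 0.15 and 0.40 in KO replicates 1, 2 and 3, and the 24 without it had -0.020, 0.092 and -0.022. In KO replicate 3, 10 of the 12 and 10 of the 24 were above wild type (48.7% of all kept genes). The 14 with ACTTCCG had medians of 0.11, 0.10 and 0.028 in the KO replicates, and the 22 without it -0.020, 0.13 and 0.041. These are descriptions of letters in a window, 5 of the 12 kept genes with CCAAT are alpha ring genes, and neither split was tested.

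The alpha ring genes, which form the gated outer rings, stood mostly above wild type. Of 7 kept members, 6 had a KO mean above wild type (49.9% of all kept genes) and 4 were higher in all 3 KO arrays (23.2%). Their median log2 difference was 0.19, and none of the 7 passed the test. Of the 1859 brightest kept genes, 1030 had a KO mean above wild type and 413 were higher in all 3 KO arrays. Psma6 gave 5842, 6683 and 7887 in KO replicates 1, 2 and 3, against 4852 in the wild-type array, a log2 difference of 0.48 (SE 0.33). All 3 KO signals lie above the wild-type one, but this probe set is marked for cross-hybridization, and another bright one of Psma6 gave 4562, 5608 and 5594 in the KO replicates, against 4737 in the wild-type array, with KO replicate 1 below wild type. Psma3, whose promoter is shown above, gave 7095, 8305 and 10067 in the KO replicates, against 6580.4 in the wild-type array, a difference of 0.35 (SE 0.34). Psma5 gave 4275, 4458 and 6282 in the KO replicates, against 4021 in the wild-type array, and its other bright probe set gave 2942, 3706 and 4076, against 3089.7. For this second probe set KO replicate 1 was below wild type. Psma1 stood highest in KO replicate 3 as well (3972, against 2956 in the wild-type array), and so did Psma2 (7438, against 5352). KO replicate 3 held the highest of the 4 signals for 5 of the 7 genes, where it did so for 29.3% of all kept genes. Among the 1859 brightest kept genes it did so for 721, a larger share than among all kept genes. Psma4 was nearly level, at 5771, 5922 and 6014 in the KO replicates, against 6063 in the wild-type array. The alpha ring's median difference from wild type was 0.031, 0.17 and 0.47 in KO replicates 1, 2 and 3, and the beta-actin ratio and the 18S signal given above were also highest in KO replicate 3; their part in the result was not tested. Psma8, the alpha subunit of the testis, was at background in all 4 arrays, at 6.34, 1.88 and 3.31 in the KO replicates, against 2.71 in the wild-type array.

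The beta ring genes did not move together. Of 7 members, 2 had a KO mean above wild type and 5 below (50.1% of all kept genes), with a median of -0.23. Below wild type in every KO array were 4 (Psmb1, Psmb2, Psmb5 and Psmb7), where 20.6% of all kept genes were. Above it in every KO array were 0, where 23.2% of all kept genes were. Psmb3, a non-catalytic subunit, gave 2124, 3305 and 5057 in KO replicates 1, 2 and 3, against 2147 in the wild-type array, a log2 difference of 0.61 (SE 0.48), the highest of the 43. Its signal was 2.35 times the wild-type one in KO replicate 3 (on the log2 + pseudocount scale) and level with it in KO replicate 1, and without KO replicate 3 the difference was 0.30. The other Psmb3 probe set gave 1994, 2757 and 3940.2 in the KO replicates, against 2282 in the wild-type array, so that replicate 3 again stood highest. Psmb2, another non-catalytic subunit, gave 2681, 2537 and 1487 in the KO replicates, against 3130.2 in the wild-type array, a difference of -0.53 (SE 0.41). Psmb2 has 1 probe set, and all 3 KO signals lay below wild type, replicate 3 by the most, and without that array the difference was -0.26. Psmb1 gave 4252, 4487 and 4810.5 in the KO replicates, against 5294 in the wild-type array. A dimmer Psmb1 probe set above background in all 4 arrays gave 138, 245 and 259, against 147. There KO replicates 2 and 3 lay above wild type. Psmb4 had 5106, 5471 and 5714 in the KO replicates, against 5454 in the wild-type array, so the wild-type value lay inside the KO range.

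The catalytic subunits that the immunoproteasome exchanges were bright, and 2 of their 3 inducible counterparts were at or near background. Psmb5, the chymotrypsin-like subunit, gave 3146, 3426 and 2434 in KO replicates 1, 2 and 3, against 3608 in the wild-type array (log2 difference -0.28, SE 0.34). Psmb6, the caspase-like subunit, gave 3563, 4393 and 3731 in the KO replicates, against 3626 in the wild-type array (0.10, SE 0.31). Psmb7, the trypsin-like subunit, gave 10059, 9644 and 8085 in the KO replicates, against 11400.5 in the wild-type array (-0.31, SE 0.32). Psmb5 and Psmb7 lay below wild type in all 3 KO arrays and Psmb6 on both sides of it. Psmb8, the counterpart of Psmb5, gave 29.3, 12.4 and 66.6 in the KO replicates, against 10.4 in the wild-type array, and was above background only in KO replicate 1. Psmb9, the counterpart of Psmb6, gave 35.0, 19.8 and 12.1 in the KO replicates, against 71.2 in the wild-type array, and was above background in KO replicate 1 and wild type. Since it was at background in KO replicates 2 and 3, its difference has no exact size. Psmb10, the counterpart of Psmb7, was measured in all arrays, at 431, 342 and 350.2 in the KO replicates, against 516 in the wild-type array, a difference of -0.46 (SE 0.32), with the lowest moderated t of the 43 genes. All 3 KO signals were below the wild-type one.

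**Figure D2:**
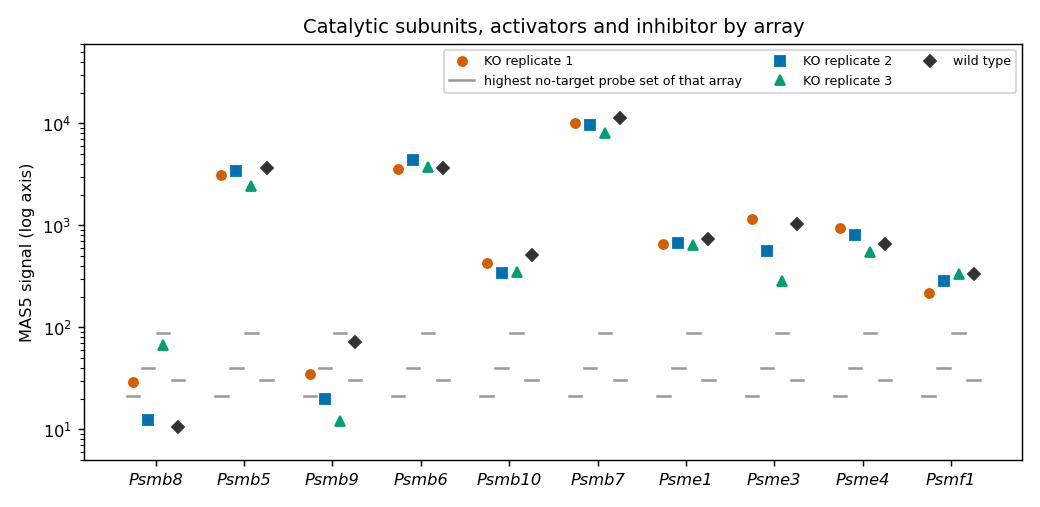
MAS5 signal (log axis) of the inducible and constitutive catalytic subunits in pairs, then of activators and the inhibitor, in KO replicates 1 to 3 and the wild-type array. Points are single arrays, and grey dashes mark the highest no-target bacterial probe set of the same array; Psmb8 and Psmb9 fall among the dashes and the other genes lie above them in every array.

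Genes that act with the immunoproteasome in antigen presentation were looked at beside it. Of 11 listed genes, 9 had a single-gene probe set and 6 were kept. In every KO array 3 lay below wild type (20.6% of all kept genes) and 0 above it (23.2%). None passed the test, and the median log2 difference was -0.28. H2-K1, a class I histocompatibility gene measured by a cross-hybridizing probe set, gave 479, 502 and 688 in the KO replicates, against 1255 in the wild-type array (-1.17, SE 0.34). H2-D1, likewise cross-hybridizing, differed by -0.81 (SE 0.43), the loading factor gene Tapbp by -0.34 (SE 0.35) and B2m, the class I light chain, by -0.21 (SE 0.34). Irf1 was nearly level, at 286, 265 and 286 in the KO replicates, against 274 in the wild-type array (0.023, SE 0.30). Tap1, the peptide transporter gene beside Psmb9, gave 91.2, 114.9 and 84.2 in the KO replicates, against 110.4 in the wild-type array, and was at background in KO replicate 3. Blood and microglia cells carry high immunoproteasome levels. Of their 7 markers 2 (Csf1r and Cd68) were above background in all arrays, Ptprc was at background in all, and the summed signal was 315, 476 and 356 in the KO replicates, against 301 in the wild-type array. In a bulk culture fewer cells of a type and less RNA per cell cannot be told apart.

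Among the 6 ATPases of the 19S base, none was lower (20.6% of all kept genes) and 1, Psmc2, was higher in all 3 KO arrays (23.2%). The median difference was 0.055. Psmc2 gave 3649, 2864 and 3509 in the KO replicates, against 2859 in the wild-type array, from a probe set marked for cross-hybridization, and its unmarked one gave 2824, 2693 and 2382, against 2501, with KO replicate 3 below wild type. Psmc5 differed most, at 2879, 1864 and 1478 in KO replicates 1, 2 and 3, against 2782 in the wild-type array (-0.48, SE 0.42). KO replicate 1 was level with wild type and the other KO arrays were below it. The Psmc5 difference was -0.74 without KO replicate 1 and -0.26 without KO replicate 3. Psmc6 gave 2893, 3456 and 4206 in the KO replicates, against 3046 in the wild-type array. Psmc1, Psmc2, Psmc3 and Psmc4 had differences between -0.08 and 0.22. In KO replicate 1, 5 of the 6 ATPase genes were above wild type (53.5% of all kept genes), and in KO replicate 3, 2 of 6 were.

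Of the 11 non-ATPase genes of the 19S particle, 3 were higher in all 3 KO arrays (Psmd11, Psmd13 and Psmd14) and 2 lower (Psmd3 and Psmd8). Of all kept genes, 23.2% were higher and 20.6% lower. The median was 0.098 and none passed the test. For Psmd11 and Psmd13 the direction depends on the probe set. The one used for Psmd11 is marked for cross-hybridization. The brightest unmarked one gave 1242, 1199 and 640.2 in the KO replicates, against 1252 in the wild-type array. KO replicates 1 and 2 were nearly level there. Other unmarked ones of Psmd11 above background in all 4 arrays gave 591, 802 and 846, against 521, and 716, 699 and 657, against 515. These lay above wild type in every KO array, as did the one used. A cross-hybridizing one of Psmd13 gave 733, 560.3 and 448 in the KO replicates, against 741 in the wild-type array. In this one and the brightest unmarked one of Psmd11 every KO array lay below wild type. Psmd14, the deubiquitinase that strips ubiquitin from substrates, gave 5216, 5937 and 6566 in the KO replicates, against 4987 in the wild-type array (0.24, SE 0.32). Psmd11, a lid subunit known from human embryonic stem cells to favour 26S assembly, gave 3202, 3726 and 4282 in the KO replicates, against 3041 in the wild-type array (0.29, SE 0.32). Psmd4, a ubiquitin receptor, gave 1799, 1979.8 and 2428 in the KO replicates, against 1839 in the wild-type array (0.16, SE 0.33). For the first 2 of these genes every KO array lay above wild type, and for Psmd4 replicate 1 lay below it. Psmd3 and Psmd2 stood below wild type in KO replicates 2 and 3. Psmd3, a lid subunit, gave 1214, 833 and 678 in the KO replicates, against 1301 in the wild-type array (-0.55, SE 0.39). Psmd2, the large base scaffold, gave 3206, 2473 and 1584 in the KO replicates, against 2975 in the wild-type array (-0.35, SE 0.43). Without KO replicate 3 the differences were -0.37 for Psmd3 and -0.079 for Psmd2. Psmd1, the companion scaffold of the base, had 2893, 2931 and 2474 in the KO replicates, against 2576 in the wild-type array, so replicate 3 was far closer to wild type for Psmd1 than for Psmd2. The base assembly chaperones Psmd5, Psmd9 and Psmd10 differed by -0.12, 0.087 and 0.14, and had the smallest spread among the KO arrays of any role with several genes (median SD 0.079 on the log2 scale, against 0.22 over the 43 genes and 0.27 over all kept genes).

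**Figure D3:**
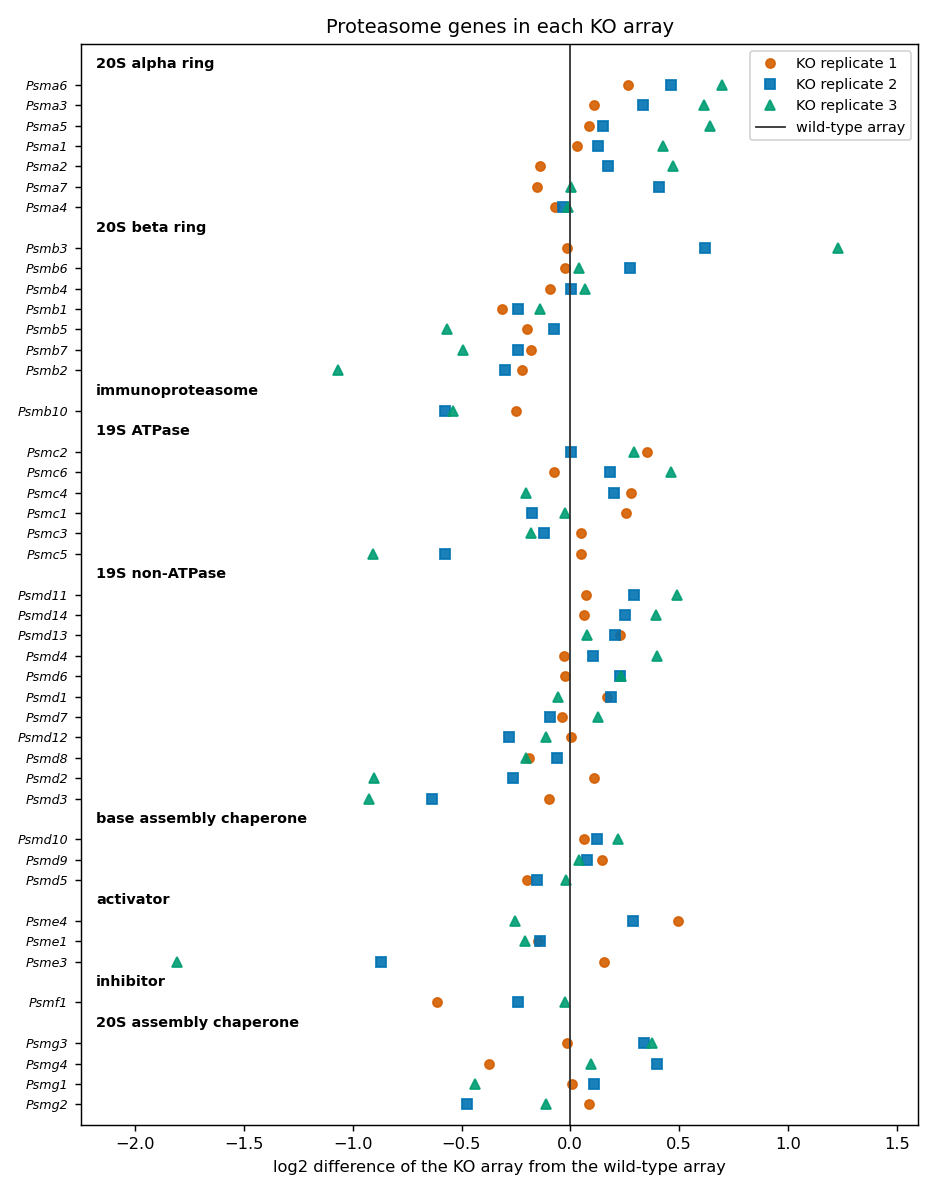
Log2 difference of each KO array from the wild-type array (horizontal axis, vertical line at the wild-type array) for 43 kept proteasome genes, grouped by role and ordered by mean difference within a role. Points are single KO arrays; in KO replicate 1 the outermost points are Psmf1 at -0.61 and Psme4 at 0.49, and KO replicate 3 holds the outermost points, Psme3 at -1.81 and Psmb3 at 1.23.

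Activators bind the core in place of the 19S cap. Psme3, the nuclear activator PA28-gamma, gave 1143, 554 and 282 in KO replicates 1, 2 and 3, against 1024 in the wild-type array, a log2 difference of -0.84 (SE 0.67). It had both the lowest difference and the largest spread among the KO arrays of the 43 genes, with replicate 1 above wild type and replicate 3 3.51 times below it. The Psme3 difference was -0.36 without KO replicate 3 and -1.34 without KO replicate 1. Map2 and S100b, which make up the largest part of the neuron and astrocyte marker sums given above, were likewise lowest in KO replicate 3. Most other markers of these cell types were not, and the part of either cell type in the result was not tested. A 2nd Psme3 probe set gave 629, 552 and 525 in the KO replicates, against 773 in the wild-type array, with all KO arrays below wild type and less spread. Psme1, the interferon-responsive PA28-alpha, gave 662, 667 and 635 in the KO replicates, against 736 in the wild-type array (-0.16, SE 0.30), with all 3 below wild type. Psme4, the large activator PA200, gave 938, 811 and 553 in the KO replicates, against 662 in the wild-type array (0.18, SE 0.38). KO replicate 3 held the lowest of the 4 signals for all 3 activator genes, as it did for 35.6% of all kept genes. This did not hold for 2 further probe sets of Psme4, which gave 790.4, 811 and 722 in the KO replicates, against 455 in the wild-type array, and 554, 485 and 497 against 485. Psmf1, the inhibitor PI31, gave 214.7, 283 and 330.0 in the KO replicates, against 336 in the wild-type array (-0.29, SE 0.35). Its largest departure from wild type was in KO replicate 1, and KO replicate 3 was level with wild type. The 4 assembly chaperones of the core, Psmg1 to Psmg4, had differences between -0.17 and 0.23. None lay on 1 side of wild type in all 3 KO arrays, where 23.2% of all kept genes lay above it and 20.6% below.

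Probe sets of the same gene did not always agree. Of 83 probe sets, 67 were above background in all 4 arrays, and 18 genes had several such probe sets. For 10 of them the KO minus wild type difference took opposite signs between probe sets. Some of these differences lay near 0, as for Psmb4 (-0.0076 and 0.12). The share over all genes with several probe sets was not computed, so the count is not read as particular to the proteasome genes. For these 18 genes the median range of the difference between a gene's probe sets was 0.46. Psmd6, a lid subunit, was the clearest case among bright probe sets. The probe set that represents it gave 4055, 4838 and 4855 in KO replicates 1, 2 and 3, against 4129 in the wild-type array (0.15). The other gave 2523, 364 and 506 in the KO replicates, against 1921 in the wild-type array (-1.29). In the second probe set KO replicate 1 and wild type were several times brighter than KO replicates 2 and 3, which the first did not show at all. Psmc4 had a similar pair, with 1558, 1476 and 1110.0 in the KO replicates, against 1281 in the wild-type array for 1 probe set, and 1873, 775 and 912 against 1626.5 for the other. A dim probe set of Psmd7 gave 80.8, 220.2 and 231 in the KO replicates, against 35.5 in the wild-type array, while the bright one gave 1015, 978 and 1141, against 1042. With each probe set tested alone, 2 of 68 kept proteasome probe sets had an unadjusted p under 0.05, a share near the 2.39% of all probe sets in that fit. They were this one and a cross-hybridizing one of Psmb1 (99.3, 106.1 and 203.6 in the KO replicates, against 16.0 in the wild-type array), and both had an adjusted p of 0.9988 in limma. Which transcript ends or isoforms the probe sets cover was not known here. Opposite signs were also found for Psmb1, Psmb4, Psmc6, Psmd4, Psmd11, Psmd13 and Psmf1.

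**Figure D4:**
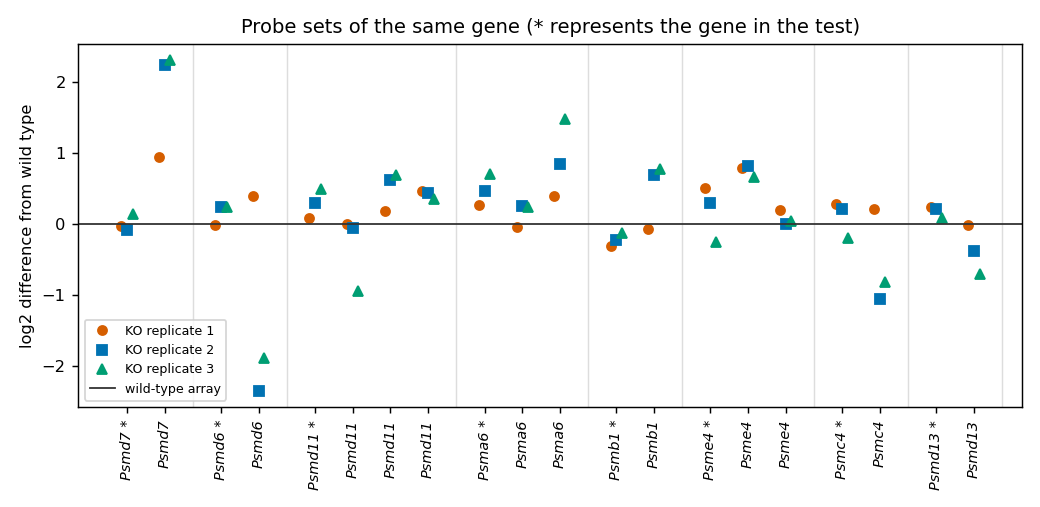
Log2 difference of each KO array from the wild-type array (vertical axis, line at the wild-type array) for every probe set above background in all arrays, in the 8 genes whose probe sets differed most; points are single KO arrays. The Psmd6 probe set used in the test differs by 0.15 in the mean of the KO arrays and the other by -1.29.

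Ubiquitin-system genes that work with the proteasome were taken as a list for comparison. Of 32 listed genes, 21 had a single-gene probe set and all 21 were kept. In all 3 KO arrays 3 were higher (23.2% of all kept genes) and 4 lower (20.6%). None passed the test, and the median log2 difference was -0.12. Usp14, a deubiquitinase docked on the 19S base, gave 1516, 991 and 686 in the KO replicates, against 1761 in the wild-type array (-0.79, SE 0.45). Rad23b, a shuttle that carries ubiquitinated proteins to the proteasome, gave 3344, 2061 and 1077 in the KO replicates, against 3701 in the wild-type array (-0.92, SE 0.58). Sem1, a small lid subunit, gave 4566, 6507 and 7826 in the KO replicates, against 4563 in the wild-type array (0.43, SE 0.38), and the ubiquitin ligase gene Ube3a differed by 0.35 (SE 0.31). In Usp14 and Rad23b every KO array lay below wild type, and in Sem1 KO replicate 1 was level with it. Nfe2l1, the regulator of proteasome genes named above, gave 800.3, 515 and 234 in the KO replicates, against 658 in the wild-type array (-0.50, SE 0.61), with KO replicate 1 above and the others below wild type. Pomp, the chaperone that matures the core, gave 5268, 5447 and 5875 in the KO replicates, against 5319 in the wild-type array (0.055, SE 0.30).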

How the data were processed

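RNA of 4 samples was measured on Affymetrix arrays, 1 array per sample, from 6 µg of total RNA per the labels' protocols. The deposited values are MAS5 signal intensities per probe set, per the submitters' processing notes; its version is not given in the sources used here. Precision is limited by there being 4 arrays. Of 22690 probe sets, 20393 have 1 gene symbol in the platform annotation, 691 several and 1606 none. Symbols were updated through RefSeq identifiers (GRCm38.p6), which also gave the promoters. Intensities became log2(signal + 14.4), the pseudocount being 0.1 times the median, so changes of dim genes are understated. Each gene was represented by its probe set of highest mean log2 value, and the dimmest 40% of 12393 genes were left out. limma 3.58.1 in R 4.3.3 compared KO with wild type, two-sided, with Benjamini-Hochberg adjustment over 7436 genes. With 1 wild-type array, KO arrays alone give the spread (2 residual and 5.23 prior degrees of freedom); the lone wild-type array is assumed to vary like them. The fit was tested on simulated data of the same design, with 200 genes changed by 1, 2, 3 or 5 on the log2 scale, in equal numbers. It called 2.6% of genes changed by 1 on the log2 scale and 58.5% of those changed by 2. Of unchanged genes it called 0.0857%. Most changes of 1 on the log2 scale were thus missed. The adjustment lets more small changes pass when large ones are present, so these shares hold for this mix of sizes only. In the arrays themselves the lowest adjusted p of any kept gene in limma was 0.99997, so the 58.5% is not a detection rate for them. Genes described in full were those with the 5 highest and 5 lowest moderated t, the 3 largest SDs over the KO arrays, catalytic subunits, activators, the inhibitor, Psmd4, Psmd11, Psmd14 and genes whose probe sets differ in sign; Psmb9 promoter, Nfe2l1, Pomp, Tap1 and the further genes named were added with their values seen. The members and lists were chosen with earlier results of these data known.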

Additional observations from a re-analysis of the deposited data

How the results depend on the processing

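No proteasome gene passed the test under any of the 15 alternatives run. The lowest adjusted p of a named gene was 0.736, without KO replicate 1. Without KO replicate 1 limma called 2 genes in all, neither a member. The median log2 difference of the 43 genes lay between 0.008 and 0.038 when 1 KO array was left out, and was -0.015 with the split of Xist (KO replicates 2 and 3 apart from KO replicate 1 and wild type) as a term, which by construction compares KO replicate 1 with wild type alone. The count of genes higher than wild type in all KO arrays was 10 to 20, and of genes lower 11 to 18, when 1 KO array was left out. With fewer KO arrays that must lie on the same side, such counts can only stay or rise. The share of all kept genes under the same rule is not given here. Both counts were highest without KO replicate 1, and why it was that array was not tested. With each probe set as its own feature, 16 of 68 were higher in all 3 KO arrays, and the share of all probe sets under this rule is not given here. Without those shares, none of these counts is read as a result about the proteasome genes. The wild-type array could not be left out. No paired analysis was possible because the groups share only 1 replicate number, given in accession order.

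Of 364 values of 26 named genes under the alternatives, 339 kept their sign and 25 did not, and the cause was not tested. The values could not change with no filter on dim genes, with the dimmest 20% left out, or with signals raised to background. Nor could they change with limma's trend and robust options, or under the choice of probe sets for genes with 1 probe set. The 339 therefore overstate how stable the signs are. With the mean of a gene's probe sets, the difference was 0.82 for Psmb1, 0.058 for Psmb4, -0.23 for Psmc4, -0.027 for Psmd11, -0.10 for Psmd13, -0.57 for Psmd6, 0.46 for Psmd7 and 0.12 for Psmf1. With probe sets not marked for cross-hybridization preferred, it was -0.34 for Psmd11. With the Xist split as a term, it was -0.015 for Psmb3, -0.025 for Psmb6, 0.049 for Psmc5, -0.074 for Psmc6, 0.11 for Psmd2, -0.031 for Psmd4, -0.026 for Psmd6 and 0.16 for Psme3. Scaling by the median gave 0.016 for Psmb4 and 0.023 for Psmd7. Psmd7, near 0 in the test, was 8.3e-05 with a pseudocount of 50 and 0.026 with quantile normalization. With 1 KO array left out, Psmb4 lay between -0.045 and 0.036, Psmc4 between -0.00064 and 0.24, and Psmd7 between -0.064 and 0.046. The difference moved by over 1.5 times, or changed sign, for 13, 4 and 17 of the 26 named genes without KO replicate 1, 2 and 3 in turn.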
